A study of Mus musculus with 28 samples.

Results

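Adipoq, Lep, Retn, Plin1, Cidec, Fabp4, Pparg, Adrb3, Acvr1c and Ucp1 are 10 genes of fat cells and of fat browning, described here in mouse skin. They were chosen by name, matched by gene symbol in both count tables and joined by Ensembl identifier. All 10 were found, among 55573 genes in the whole-body table and 57126 genes in the keratinocyte table. Of them, 9 passed edgeR's filter on low counts and were tested, and Ucp1 did not pass. The 28 libraries came from whole skin of 12-week-old female mice whose hair had been removed 5 days earlier. In the whole-body experiment, wild-type mice (WT) and mice with both Vsir copies lost in every cell (Vsir-/-, here KO) were compared, with 3 libraries per group. Vsir encodes VISTA, an inhibitory immune checkpoint protein. In the keratinocyte experiment, Vsirfl/fl mice without Cre (FL) and K14creVsirfl/fl mice (cKO) were compared, with 4 libraries per group. All mice of that experiment, controls included, carry floxed Vsir, and in cKO the keratin 14 promoter directs Cre to keratinocytes, so fat cells were not targeted. Each genotype was taken without ultraviolet B light (NoUV) or after 500 mJ/cm2 (UV). Harvest is placed 3 h after UV in the sample names and the design text but 1 day after it in the treatment protocol, so the interval is uncertain.

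White fat cells form a layer beneath the dermis and store triglyceride in a single large lipid droplet. Pparg is the nuclear receptor that drives their formation and that binds DNA together with RXR, and the C/EBP factors act with it. Plin1 and Cidec coat and enlarge the droplet, Fabp4 carries fatty acids in the cytoplasm, and Adipoq, Lep and Retn are hormones released by fat cells. The receptor Adrb3 passes the noradrenaline signal that starts lipolysis, Acvr1c (ALK7) is a type I receptor of the activin family that restrains lipolysis, and Ucp1 is the uncoupling protein of brown and beige fat. Pparg is also expressed in sebaceous glands.

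Promoter windows from RefSeq (build GRCm38.p6, 250 bases before to 50 bases after a start site) were matched for 8 of the 10 genes, giving 12 windows, because Pparg, Cidec and Acvr1c have several starts. No window was matched for Fabp4 and Adrb3. The stretches below are shown because Pparg and Acvr1c were the members that fell after UV in the whole-body experiment, Lep was the member that rose in KO, and Adipoq and Plin1 serve as the comparison. Each lies before the annotated start and outside any GENCODE exon. It is written from 5′ to 3′ on the gene's strand, and capitals mark the motif TTGCNNAA (C/EBP type, on either strand).
Pparg, the second start, chr6:115362142-115362291, plus strand: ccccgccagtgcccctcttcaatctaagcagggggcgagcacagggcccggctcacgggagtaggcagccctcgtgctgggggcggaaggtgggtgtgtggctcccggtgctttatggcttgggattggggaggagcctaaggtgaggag
Pparg, the third start, chr6:115421916-115422065, plus strand: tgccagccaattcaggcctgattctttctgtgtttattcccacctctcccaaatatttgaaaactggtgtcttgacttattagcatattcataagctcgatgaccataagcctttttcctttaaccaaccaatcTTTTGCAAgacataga
Acvr1c, the first start, chr2:58357896-58358008, minus strand: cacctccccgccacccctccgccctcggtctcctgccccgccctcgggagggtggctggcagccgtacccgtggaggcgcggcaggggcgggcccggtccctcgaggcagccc
Lep, chr6:29060070-29060219, plus strand: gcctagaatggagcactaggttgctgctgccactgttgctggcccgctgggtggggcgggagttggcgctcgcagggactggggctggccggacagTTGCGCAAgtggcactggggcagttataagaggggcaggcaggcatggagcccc
Plin1, chr7:79732904-79733026, minus strand: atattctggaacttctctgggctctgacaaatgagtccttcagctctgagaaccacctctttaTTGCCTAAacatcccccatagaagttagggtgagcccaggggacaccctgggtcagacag
Adipoq, chr16:23146386-23146535, plus strand: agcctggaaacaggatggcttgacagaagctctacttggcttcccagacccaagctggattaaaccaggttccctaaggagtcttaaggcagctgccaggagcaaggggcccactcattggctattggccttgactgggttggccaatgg
The motifs were searched on both strands over the whole 300-base windows. TTGCNNAA was found in 4 of the 12 windows (Lep, Plin1, the third start of Pparg and the second start of Cidec), and in 10.8% of all 32851 RefSeq windows. AGGTCA, the half-site of nuclear receptors, was found in 3 of the 12 (the first and second starts of Pparg, and Ucp1) and in 16.3% of all windows. TATAAA was found in 1 of the 12 (the second start of Pparg) and in 13.6% of all. AGGTCA repeated in the same direction with 1 base between (the PPAR and RXR type, which contains AGGTCA) and TGACGTCA (the CRE) were found in 0 of the 12, and in 0.0396% and 1.79% of all windows. A match is a run of letters and not a shown binding site, and the counts are per gene, so transcripts from different starts of Pparg are not separated.

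Libraries held 30.47 to 43.84 M counts in the whole-body experiment and 7.12 to 31.14 M in the keratinocyte one. FL_NoUV replicate 1 (7.12 M) and cKO_UV replicate 3 (7.51 M) were far shallower than the rest. Vsir was 38.4 ± 6.65 CPM (counts per M after TMM scaling, mean ± SD, n = 3) in WT_NoUV and 6.14 ± 0.951 (n = 3) in KO_NoUV, a log2 fold change of -2.64 (adjusted p = 0.00047, edgeR). Vsir in cKO was not below FL without UV, at a log2 difference of 0.41 (95% interval -0.26 to 1.08), so its counts in whole skin do not check the cKO label. Hoxc10, a gene whose expression marks the position along the body, had at most 2 counts in every NoUV library and 137 to 272 in every UV library of the whole-body experiment. In those 12 libraries, UV and the body site sampled cannot be told apart, and this touches each whole-body UV value below. In the keratinocyte experiment Hoxc10 ran from 4 to 146 counts in FL_NoUV, 2 to 115 in cKO_NoUV, 0 to 128 in FL_UV and 0 to 2 in cKO_UV. The body site sampled was therefore not shown to be alike across these groups either, cKO_UV in particular. Its part in the keratinocyte values below was not tested. The label names skin, and the summed CPM of Adipoq, Lep, Retn, Plin1, Cidec and Fabp4 was between 235 and 1280 in all 28 libraries, so transcripts of fat cells were present in each. In whole skin, fewer fat cells and less RNA per fat cell cannot be told apart.

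Levels between genes are compared as CPM per kilobase of exon (mean ± SD). In WT_NoUV, Fabp4 (92.3 ± 6.63) and Adipoq (90.1 ± 4.45) were highest and differed by less than their SD. Cidec (31.8 ± 11.1) and Retn (19.5 ± 5.49) followed, and then Pparg (15.4 ± 2.39) and Plin1 (14.1 ± 1.49), which did not differ beyond their spread. Lep (4.48 ± 0.528), Adrb3 (2.81 ± 0.0522) and Acvr1c (1.26 ± 0.463) were lowest among the tested genes. The hormone and the fatty acid carrier of mature fat cells thus led, and the receptors stood at the bottom. In FL_NoUV the order at the top was Adipoq (40.4 ± 12.4) and Fabp4 (37.3 ± 9.3), again within their SD, and the receptors Adrb3 (1.6 ± 0.411) and Acvr1c (1.51 ± 0.34) were again at the bottom. After UV, Pparg stood below Plin1 in every genotype, whereas without UV its mean was above that of Plin1 in WT, FL and cKO. In KO_UV, Pparg was 5.3 ± 0.305 and Plin1 12.3 ± 1.81 CPM per kilobase, and in FL_UV Pparg was 8.88 ± 2.84 and Plin1 15.6 ± 5.2.

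**Figure D1:**
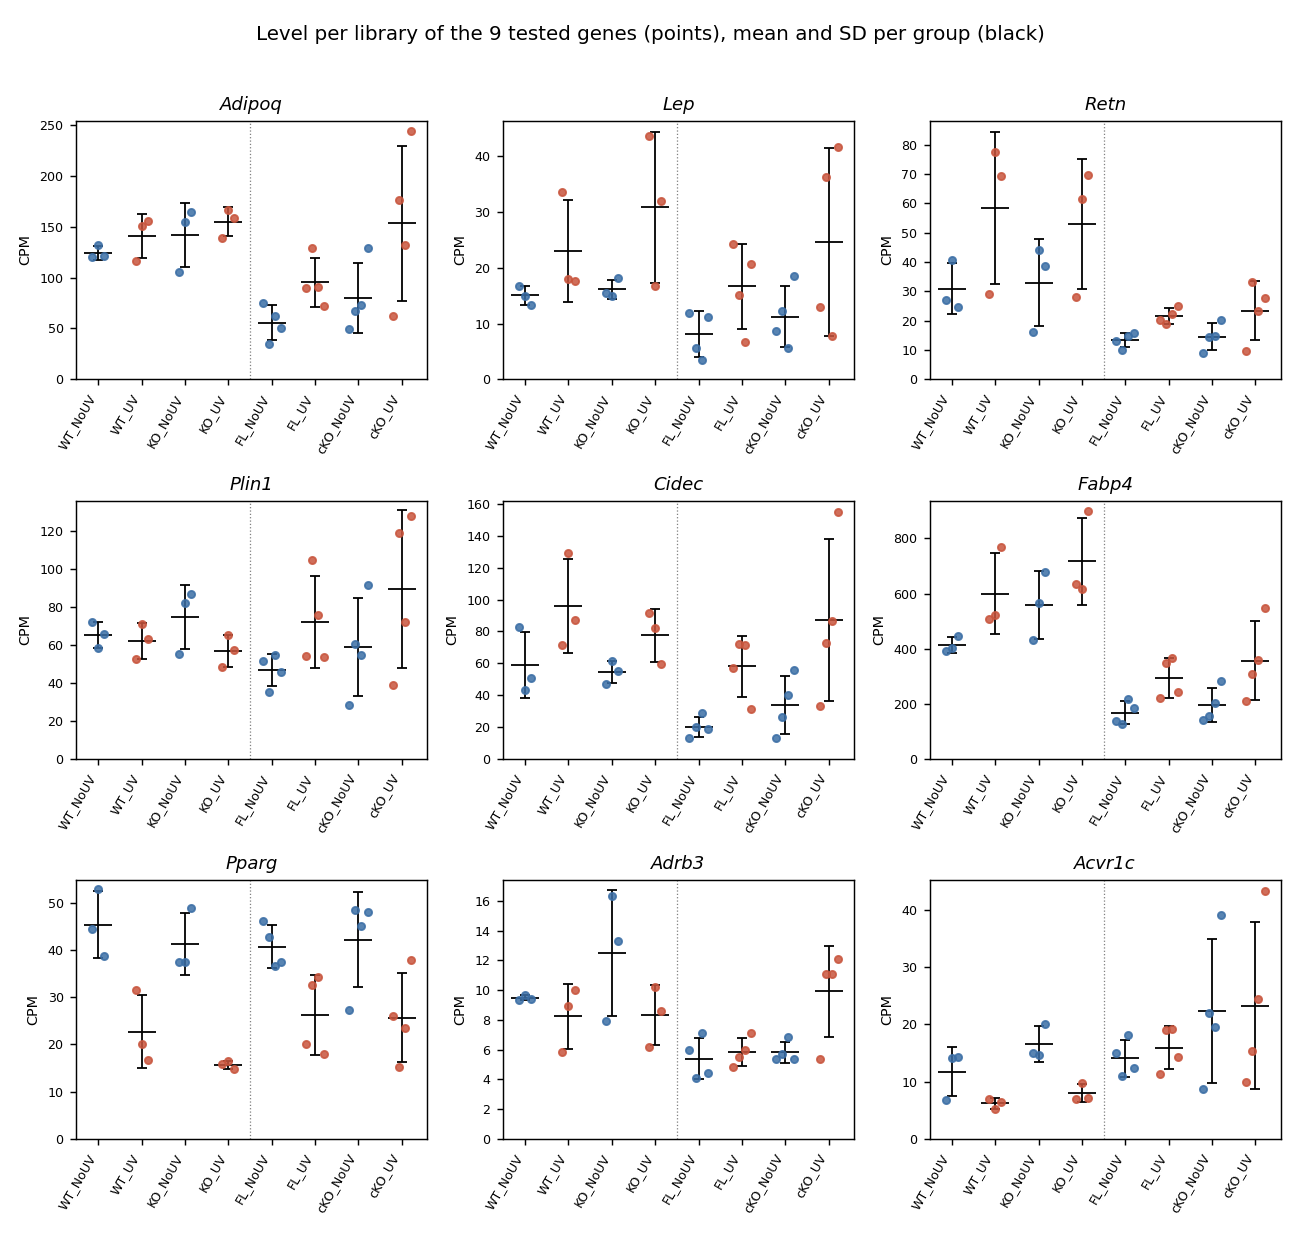
CPM per library for the 9 tested genes (points, blue NoUV and red UV), with group mean and SD in black. The dotted line divides the whole-body from the keratinocyte experiment, which were scaled separately. Pparg is lower in all 3 UV libraries than in all 3 NoUV libraries of WT and of KO, whereas Fabp4 in WT and in FL lies higher in the UV libraries.

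Pparg, the nuclear receptor of fat cell formation (chr6:115360951-115490399, GRCm38, ENSMUSG00000000440), was the member with the lowest adjusted p after UV in WT and KO. In WT it was 44.4, 52.8 and 38.8 CPM without UV and 31.4, 20.1 and 16.6 CPM after UV. KO libraries held 37.5, 37.5 and 48.8 CPM without UV and 15.8, 16.5 and 14.7 CPM after UV. In both genotypes, every UV library was below every NoUV library. On the log2 scale Pparg fell by 1.00 in WT (SE 0.22, adjusted p = 0.00743), and its log2 fold change was -1.40 (SE 0.22, adjusted p = 0.000941) in KO. With the WT groups fitted alone the WT call was lost (adjusted p = 0.0595), and the KO call held in all 19 fits.

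In FL, Pparg was 46, 42.8, 36.5 and 37.4 CPM without UV and 20, 32.6, 34.3 and 18 CPM after UV. The cKO libraries were at 27.2, 48.4, 45 and 48.1 CPM without UV and 26, 15.3, 23.5 and 37.9 CPM after UV. The FL groups did not overlap, and the cKO groups did, with cKO_NoUV replicate 1 far below the other 3. Neither passed the threshold, at log2 fold changes of -0.63 (SE 0.26, adjusted p = 0.164) in FL and -0.72 (SE 0.27, adjusted p = 0.0986) in cKO. Pparg in cKO passed without cKO_NoUV replicate 1 (adjusted p = 0.0434) and without cKO_UV replicate 4 (adjusted p = 0.0393). For Pparg, the difference between the WT and FL responses to UV was -0.35 (95% interval -1.10 to 0.39, adjusted p = 0.77), so a difference between the experiments was not shown. The sebaceous gland, another site of Pparg in skin, was read from a list of 10 genes. Of these, 0 passed in each of the 4 UV comparisons (18.7%, 22.4%, 7.62% and 9.72% of all genes passed in WT, KO, FL and cKO). The summed CPM of the list was 2860 to 3350 in WT_NoUV, 3320 to 4530 in WT_UV, 2010 to 2800 in KO_NoUV and 2090 to 3910 in KO_UV. In the keratinocyte experiment the sums were 3300 to 4030 in FL_NoUV and 2360 to 4370 in FL_UV, and 2060 to 4540 in cKO_NoUV and 2870 to 4330 in cKO_UV. The median sum was thus higher after UV in WT (3340 and 4200) and KO (2190 and 3050) and lower in FL (3770 and 3400) and cKO (4260 and 3500), and its part in the Pparg values was not tested.

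Acvr1c, the activin family receptor (chr2:58267453-58357895, GRCm38, ENSMUSG00000026834), also fell after UV in the whole-body experiment. In WT it was 6.74, 14.1 and 14.3 CPM without UV and 7.04, 5.21 and 6.4 CPM after UV, and WT_NoUV replicate 1 lay among the UV libraries. In KO it was 15, 14.6 and 20.1 CPM without UV and 6.9, 9.81 and 7.18 CPM after UV, without overlap. The log2 fold change was -0.91 (SE 0.28, adjusted p = 0.0353) in WT and -1.06 (SE 0.27, adjusted p = 0.0148) in KO. The WT call was lost without WT_NoUV replicate 2 (adjusted p = 0.121) or 3 (0.133), without WT_UV replicate 2 (0.0965) or 3 (0.069), and without KO_NoUV replicate 1 (0.0551). With only the WT groups in the fit it was lost as well (adjusted p = 0.134). The KO call was lost without KO_UV replicate 1 (adjusted p = 0.0534) or 3 (0.0617) and without KO_NoUV replicate 3 (0.0631). In the keratinocyte experiment the estimates for Acvr1c lay near 0. Acvr1c was 14.9, 10.9, 18.1 and 12.3 CPM in FL_NoUV and 11.3, 19, 19.1 and 14.3 CPM in FL_UV (log2 fold change 0.18, 95% interval -0.73 to 1.10). In cKO it was 8.71, 22, 19.6 and 39 CPM without UV and 9.92, 15.4, 24.4 and 43.2 CPM after UV (log2 fold change 0.06, 95% interval -0.85 to 0.96). The spread within each cKO group was wider than any shift between them. For Acvr1c, the difference between the WT and FL responses was -1.08 (95% interval -2.26 to 0.10, adjusted p = 0.433), so the whole-body and keratinocyte experiments were not shown to differ for Acvr1c.

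Pparg and Acvr1c were thus 2 of 9 tested members called in WT, both lower, where 18.7% of all 20365 genes were called and 9.84% were called lower. In KO, 3 of 9 were called, where 22.4% of all genes were called: Pparg and Acvr1c lower (11.1% of all genes) and Lep higher (11.3% of all genes). These shares are near the background, so the counts of called members are no result about the group. The median log2 fold change of the 9 was 0.18 in WT and 0.13 in KO, beside -0.01 and 0.02 over all genes tested. In FL and cKO, 0 of 9 were called, where 7.62% and 9.72% of all 19718 genes were. The median of the 9 was 0.68 in FL and 0.77 in cKO, beside 0.01 over all genes in both. Members share their libraries, so such medians do not rest on 9 independent values. Groups did not overlap for 3 of 9 members in WT (29.4% of all genes), 2 of 9 in KO (50.7%), 4 of 9 in FL (14.5%) and 0 of 9 in cKO (17.6%).

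**Figure D2:**
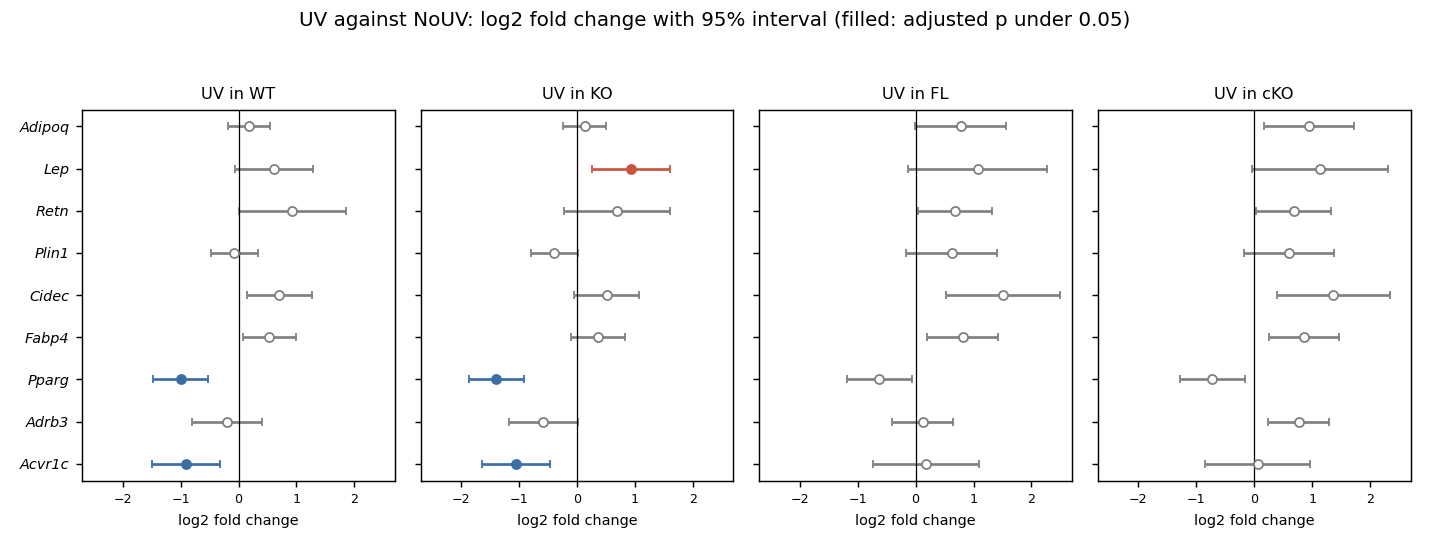
Log2 fold change of UV against NoUV (x axis) with its 95% interval for each of the 9 tested genes, in 4 genotypes. Filled points passed an adjusted p of 0.05: Pparg, which fell by 1.00 in WT and had -1.40 in KO, Acvr1c (-0.91 in WT and -1.06 in KO), and Lep (0.93) in KO.

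Among the hormones, Lep (leptin, which reports fat stores to the brain, chr6:29060220-29073877, ENSMUSG00000059201) rose after UV in KO. In KO it was 15.5, 14.9 and 18.1 CPM without UV and 43.7, 16.8 and 32 CPM after UV, so KO_UV replicate 2 lay among the NoUV libraries. The log2 fold change was 0.93 (SE 0.31, adjusted p = 0.0476), and it passed in 9 of 19 fits. Each of the KO libraries except KO_UV replicate 2 was needed for the call, as were WT_NoUV replicates 2 and 3 and WT_UV replicate 3, with adjusted p between 0.0533 and 0.248 when 1 of these was left out. It was also lost without the filter on low counts (adjusted p = 0.072) and with the KO groups fitted alone (0.0581). In WT, Lep was 16.8, 15 and 13.3 CPM without UV and 33.6, 17.9 and 17.6 CPM after UV. The WT groups did not overlap, but the difference of 0.61 did not pass (adjusted p = 0.195), and without WT_UV replicate 1 it was 0.23. In FL, Lep was 11.9, 5.63, 3.48 and 11.2 CPM without UV and 24.3, 15.2, 6.7 and 20.6 CPM after UV (log2 fold change 1.07, adjusted p = 0.276). In cKO it was 8.62, 12.2, 5.65 and 18.5 CPM without UV and 12.9, 36.2, 7.68 and 41.7 CPM after UV (log2 fold change 1.14, adjusted p = 0.214). Both pairs of groups overlapped, with libraries of 1 group differing several-fold.

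Adipoq (adiponectin, an abundant hormone of fat cells, chr16:23146536-23158028, ENSMUSG00000022878) showed no shift beyond the spread between libraries in the whole-body experiment. It was 120, 132 and 121 CPM in WT_NoUV and 116, 151 and 156 CPM in WT_UV. The KO libraries were at 106, 155 and 165 CPM without UV and 139, 167 and 159 CPM after UV. The groups overlapped in both genotypes, at log2 fold changes of 0.18 (95% interval -0.19 to 0.55) in WT and 0.13 (95% interval -0.25 to 0.50) in KO. In FL it was 74.9, 34.8, 62.6 and 50.8 CPM without UV and 90, 129, 91.2 and 71.8 CPM after UV. Adipoq in cKO was 49.9, 66.8, 72.8 and 129 CPM without UV and 62.6, 176, 132 and 244 CPM after UV. The log2 fold changes of Adipoq in FL (0.78, SE 0.37, adjusted p = 0.224) and cKO (0.95, SE 0.37, adjusted p = 0.117) did not pass. Without cKO_UV replicate 1, the lowest of its group, the cKO value was 1.22 and passed (adjusted p = 0.0297).

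Retn (chr8:3655770-3660110, ENSMUSG00000012705) encodes resistin, a hormone of white fat cells in mice. It was 26.9, 40.8 and 24.8 CPM in WT_NoUV and 29, 77.4 and 69.2 CPM in WT_UV, and 16.2, 44.2 and 38.5 CPM in KO_NoUV and 28, 61.4 and 69.8 CPM in KO_UV. In each of these groups 1 library lay apart from the others, and the log2 fold changes of 0.92 (SE 0.43, adjusted p = 0.156) and 0.69 (SE 0.43, adjusted p = 0.282) did not pass. In FL, Retn was 12.9, 10.1, 14.7 and 15.9 CPM without UV and 20.2, 18.7, 22.3 and 25 CPM after UV. Every FL_UV library was above every FL_NoUV library, at 0.68 (SE 0.30, adjusted p = 0.189). Retn in cKO was 8.83, 14.5, 14.7 and 20.3 CPM without UV and 9.67, 33.1, 23.2 and 27.7 CPM after UV, at 0.68 (SE 0.30, adjusted p = 0.168). Without cKO_UV replicate 1 the cKO value was 0.95 and passed (adjusted p = 0.0232).

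Of the lipid genes, Cidec (chr6:113424634-113435760, ENSMUSG00000030278), which promotes growth of the droplet by fusion, had the largest estimate of all members in FL and cKO. In FL it was 13.5, 20.4, 28.7 and 18.6 CPM without UV and 57.1, 72.3, 71.5 and 31.6 CPM after UV, with no overlap. Cidec in cKO was 13.3, 26.2, 40 and 55.6 CPM without UV and 33.4, 72.8, 86.8 and 155 CPM after UV. The log2 fold changes were 1.51 (SE 0.46, adjusted p = 0.0594) in FL and 1.36 (SE 0.46, adjusted p = 0.0716) in cKO, just outside the threshold. In cKO, NoUV and UV libraries with the same replicate number deviated together, though no shared mouse is stated. With the replicate number as a block Cidec passed in cKO (adjusted p = 0.0397). It was also called by DESeq2 in FL (adjusted p = 0.00719) and cKO (adjusted p = 0.0156), and in cKO without cKO_UV replicate 1 (adjusted p = 0.0301). In FL it was also called with the FL groups fitted alone (adjusted p = 0.0145) and without cKO_NoUV replicate 1 (0.0362), cKO_UV replicate 1 (0.0354) or cKO_UV replicate 4 (0.0428). In WT, Cidec was 82.5, 43.6 and 51.1 CPM without UV and 71.8, 129 and 87.1 CPM after UV (log2 fold change 0.70, adjusted p = 0.0787). WT_NoUV replicate 1 was the high library of its group, and without it Cidec passed (adjusted p = 0.0122), as it did by DESeq2 (adjusted p = 0.049). KO libraries had 47.1, 61.2 and 55.3 CPM without UV and 91.7, 81.9 and 59.4 CPM after UV (log2 fold change 0.51, adjusted p = 0.185). With the KO groups fitted alone it passed (adjusted p = 0.0372).

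Fabp4, the fatty acid carrier (chr3:10204088-10208576, ENSMUSG00000062515), was 391, 404 and 448 CPM in WT_NoUV and 507, 522 and 770 CPM in WT_UV, again without overlap. Fabp4 in KO was 431, 566 and 680 CPM without UV and 635, 617 and 899 CPM after UV. The log2 fold changes were 0.53 (SE 0.22, adjusted p = 0.102) and 0.36 (SE 0.21, adjusted p = 0.261). In FL it was 139, 128, 219 and 184 CPM without UV and 220, 347, 366 and 242 CPM after UV, just without overlap (0.81, SE 0.29, adjusted p = 0.0964). Fabp4 in cKO was 143, 158, 205 and 282 CPM without UV and 209, 310, 358 and 549 CPM after UV (0.86, SE 0.29, adjusted p = 0.0697). With the replicate number as a block Fabp4 passed in cKO (adjusted p = 0.0187). It was called by DESeq2 in FL (adjusted p = 0.0443) and cKO (adjusted p = 0.0281), and in cKO without cKO_NoUV replicate 4 (0.0433) or cKO_UV replicate 1 (0.0275).

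Plin1 (perilipin, the coat of the droplet, chr7:79720218-79732903, ENSMUSG00000030546) did not pass after UV in any of the 4 genotypes. It was 72, 58.3 and 66 CPM in WT_NoUV and 52.5, 71 and 63.2 CPM in WT_UV, and 55.4, 82.2 and 87.1 CPM in KO_NoUV and 48.7, 65.5 and 57.3 CPM in KO_UV. The log2 fold changes were -0.07 (95% interval -0.47 to 0.33) in WT and -0.39 (95% interval -0.79 to 0.01, adjusted p = 0.156) in KO. In FL, Plin1 ran from 35.4 to 54.7 CPM without UV and from 53.8 to 105 CPM after UV, and in cKO from 28.4 to 91.8 and from 39.3 to 128 CPM. The log2 fold changes there were 0.62 (SE 0.37, adjusted p = 0.335) and 0.60 (SE 0.37, adjusted p = 0.328). The groups overlapped in each genotype.

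Adrb3, an adrenergic receptor (chr8:27225776-27250616, ENSMUSG00000031489), was 9.36, 9.69 and 9.41 CPM in WT_NoUV and 5.81, 8.93 and 9.99 CPM in WT_UV. In KO it was 7.94, 16.3 and 13.3 CPM without UV and 6.18, 10.2 and 8.57 CPM after UV. The groups overlapped in both, at log2 fold changes of -0.20 (adjusted p = 0.668) and -0.59 (SE 0.28, adjusted p = 0.151). In FL it was 5.95, 4.12, 7.09 and 4.42 CPM without UV and 4.82, 5.48, 5.98 and 7.11 CPM after UV (0.12, 95% interval -0.41 to 0.65). In cKO it was 5.39, 5.7, 6.82 and 5.36 CPM without UV and 5.39, 11.1, 11.1 and 12.1 CPM after UV. Of the 4 cKO_UV libraries, 3 were above every cKO_NoUV library and replicate 1 was not, and the difference of 0.77 did not pass (SE 0.25, adjusted p = 0.0619). It passed without cKO_UV replicate 1 (0.98, adjusted p = 0.0129) and by DESeq2 (adjusted p = 0.0229).

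Ucp1, the uncoupling protein that defines thermogenic fat (chr8:83290352-83298452, ENSMUSG00000031710), was at or near 0 throughout. Its counts summed over a group were 8 in WT_NoUV, 1 in WT_UV, 3 in KO_NoUV and 4 in KO_UV. The corresponding sums were 2 in FL_NoUV, 2 in FL_UV, 5 in cKO_NoUV and 2 in cKO_UV. No library had more than 4 counts, and 3 counts of a library were set as the floor below which a level is not read. A change of Ucp1 was therefore not detectable at this depth, and no fold change is given.

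Between genotypes, 0 of 9 members passed in each of the 4 comparisons. The background was low as well: 0.00982% of genes (2 of 20365) for KO against WT without UV, 0.0442% (9) after UV, and 0% of 19718 for cKO against FL without and after UV. At an unadjusted p under 0.05 these comparisons held 3219, 3071, 928 and 1046 genes, and DESeq2 called 594, 450, 7 and 2. Acvr1c was higher in each KO_NoUV library (14.6 to 20.1 CPM) than in each WT_NoUV library (6.74 to 14.3 CPM), at 0.50 (95% interval -0.08 to 1.09, adjusted p = 0.374). It was the only member without overlap there, where 24.4% of all genes had none. Pparg was lower in each KO_UV library (14.7 to 16.5 CPM) than in each WT_UV library (16.6 to 31.4 CPM), at -0.54 (95% interval -1.01 to -0.07, adjusted p = 0.292), and the nearest libraries were at 16.5 and 16.6 CPM. It was again the only one, where 22.2% of all genes had none.

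For cKO against FL, all 9 estimates were above 0 without UV (median log2 difference 0.33) and 8 of 9 after UV (median 0.55), beside a median of 0.00 over all genes. The 9 members were read in the same libraries, so their estimates are not independent, and these counts are a description and not a test. The intervals included 0 for each member without UV. Cidec had the largest estimate without UV, at 0.72 (95% interval -0.24 to 1.69), and Adrb3 after UV, at 0.76 (95% interval 0.23 to 1.29, adjusted p = 0.865). Pparg was the member nearest to 0, at 0.05 (95% interval -0.50 to 0.61) and -0.03 (95% interval -0.59 to 0.53). The skeletal muscle list of 12 genes was also higher in cKO, with a median summed CPM of 11200 in cKO_NoUV beside 4980 in FL_NoUV, and 19800 in cKO_UV beside 9300 in FL_UV. The part of muscle in the genotype differences was not tested.

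**Figure D3:**
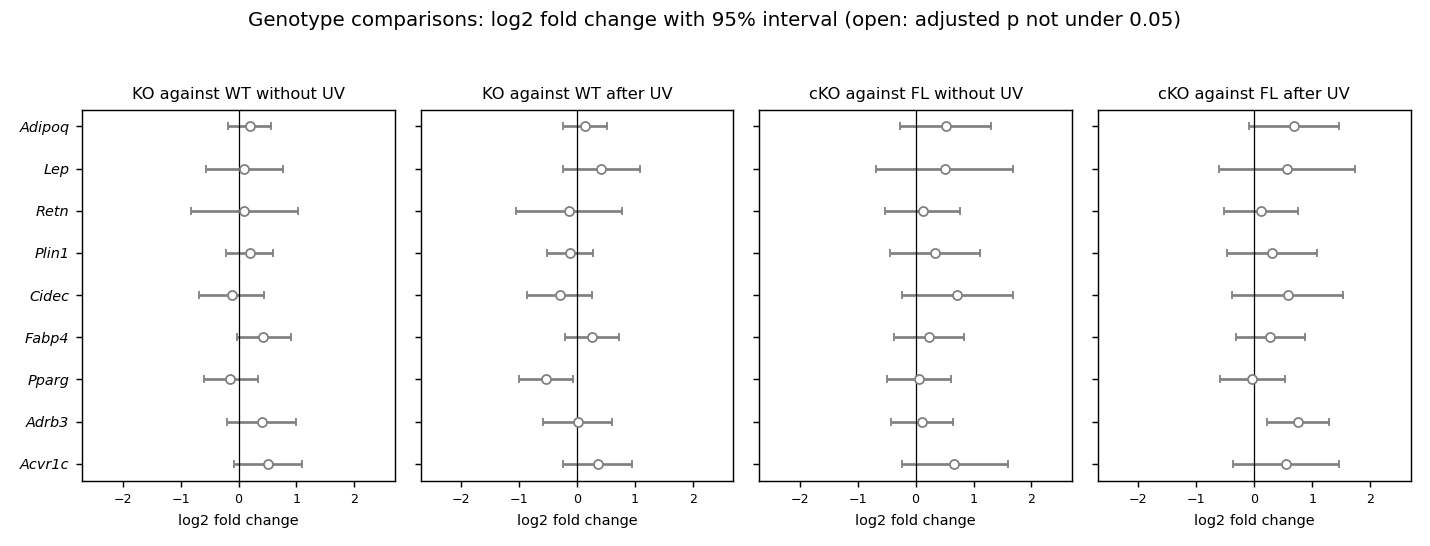
Log2 fold change between genotypes (x axis) with its 95% interval for the 9 tested genes, without and after UV. All points are open because none passed; 1 interval lies below 0 (Pparg, KO against WT after UV) and 1 above (Adrb3, cKO against FL after UV).

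The effect of UV was not shown to depend on genotype for any member. For KO minus WT, 0 of 9 members passed, as did 0% of all 20365 genes (313 at an unadjusted p under 0.05, edgeR), and the estimates ran from -0.40 (Pparg, 95% interval -1.06 to 0.26) to 0.32 (Lep, 95% interval -0.63 to 1.26). For cKO minus FL, 0 of 9 passed, as did 0% of all 19718 genes (248 at an unadjusted p under 0.05). Adrb3 had the largest estimate, at 0.65 (95% interval -0.10 to 1.39), and Retn the smallest in size, at 0.00 (95% interval -0.90 to 0.89). A difference of 1 log2 unit lies within the intervals of Adipoq, Lep, Plin1, Cidec, Adrb3 and Acvr1c, and is thus not excluded for them in cKO minus FL, whereas the intervals of Retn, Fabp4 and Pparg end short of it. For WT minus FL in the joint fit of 28 libraries, 0 of 9 passed, where 1.2% of 21851 genes did. The estimates were below 0 for 8 of 9 members, Retn being the exception at 0.26 (95% interval -0.89 to 1.41), with a median of -0.45. Since the members share libraries, this count is likewise no test.

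To set the members against fat cell content within a library, counts were divided by those of Adipoq. This is a description without a test, and Adipoq itself need not be constant. The median number of Pparg counts per 100 Adipoq counts was 36.9 (31.9 to 40.1) in WT_NoUV and 13.3 (10.7 to 27.1) in WT_UV, and 29.5 (24.2 to 35.5) in KO_NoUV and 9.85 (9.25 to 11.4) in KO_UV. In FL it was 67.5 (58.3 to 123) without UV and 25.2 (22.3 to 37.6) after UV. The cKO ratio was 58.2 (37.4 to 72.5) without UV and 16.6 (8.7 to 41.5) after UV. On this scale Pparg was lower after UV in all 4 genotypes, and the groups overlapped in cKO alone. The log2 fold change of Pparg itself was -0.63 in FL and -0.72 in cKO, and neither passed. That of the denominator Adipoq was 0.78 and 0.95, so the ratio there holds a higher estimate of Adipoq as well as a lower one of Pparg. The share of all genes without overlap on this scale was not computed. Acvr1c per 100 Adipoq counts was 10.7 and 4.11 (medians without and after UV) in WT, 12.1 and 4.98 in KO, 26.6 and 17.4 in FL, and 28.6 and 16.8 in cKO. The Acvr1c groups overlapped in WT, FL and cKO. In FL and cKO the log2 fold change of Acvr1c itself was 0.18 and 0.06, and that of the denominator Adipoq was 0.78 and 0.95, so the estimate of the denominator was above 0 where that of Acvr1c was not below 0. Plin1 per 100 Adipoq counts was 54.4 and 45.3 in WT, 52.7 and 36.1 in KO, 89 and 78.4 in FL, and 73.5 and 58.7 in cKO. In KO_NoUV the 3 Plin1 ratios lay between 52.5 and 53.1, and in KO_UV between 35.1 and 39.2. Other members had higher median ratios after UV in the whole-body experiment. In WT, Retn went from 22.4 to 44.4, Cidec from 42.1 to 61.8, Fabp4 from 324 to 437 and Lep from 11.4 to 11.9 counts per 100 Adipoq counts. In KO, Lep went from 10.9 to 20.1, Retn from 23.3 to 36.7, Cidec from 39.5 to 48.9 and Fabp4 from 408 to 458. In FL and cKO the median ratio was higher after UV for Cidec (41.3 to 59.9 and 41.2 to 58.5) and Lep (16 to 19.4 and 15.8 to 18.8), and lower for Retn (26.2 to 23.4 and 18.9 to 16.5) and Fabp4 (355 to 304 and 259 to 248). The median Adrb3 ratio was lower after UV in all 4 genotypes, at 7.75 and 5.91 in WT, 8.02 and 5.39 in KO, 10 and 5.96 in FL, and 8.95 and 7.37 in cKO. The Adrb3 groups overlapped in FL and cKO. In cKO the log2 fold change of Adrb3 itself was 0.77, beside 0.95 for the denominator Adipoq.

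**Figure D4:**
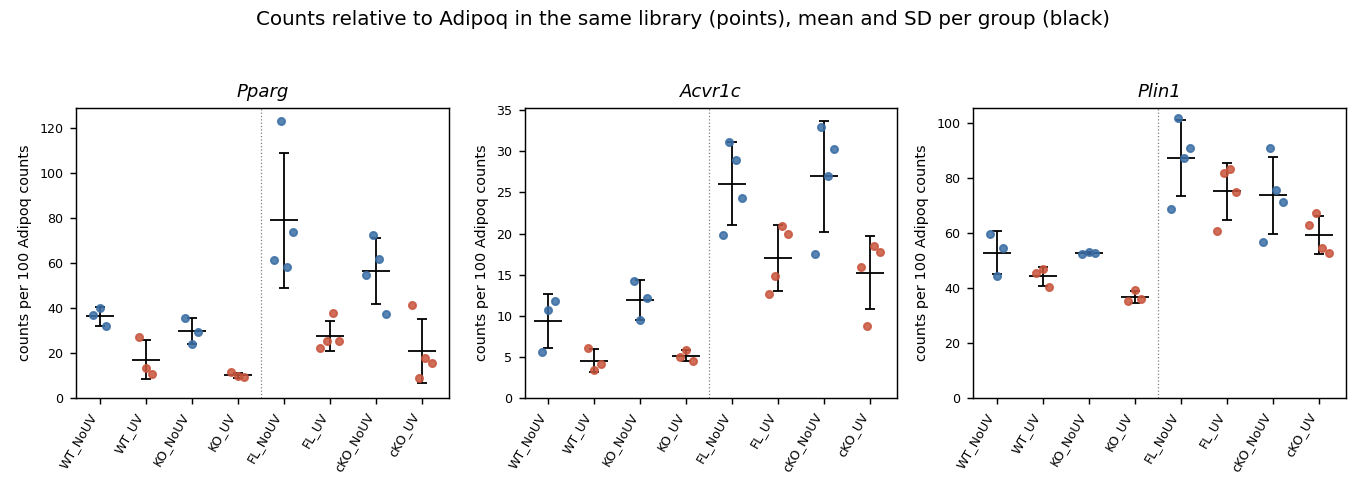
Counts of Pparg, Acvr1c and Plin1 per 100 Adipoq counts in the same library (points, blue NoUV and red UV), with group mean and SD in black. Pparg ratios of UV libraries lie below those of NoUV libraries in WT, KO and FL, and 1 cKO_UV library (41.5) lies within the NoUV range.

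The likeness of each gene's pattern to Adipoq was measured as the root mean square difference of log2 CPM, centred within each experiment, over 28 libraries and 18060 genes, where smaller is more alike. Plin1 (0.26), Fabp4 (0.31), Adrb3 (0.42), Retn (0.46) and Cidec (0.48) scored below 0.55, the value that a gene with no variation within an experiment would have, and the last 2 only slightly. Acvr1c (0.58) and Lep (0.65) lay above that value, and the median of all genes was 0.69. The measure also grows with the size of a gene's changes. A gene that moves with Adipoq but by larger amounts can therefore score above a flat one, so these 2 values do not show that the genes fail to follow Adipoq. Pparg (0.90) was further from Adipoq than most genes, at rank 15107. The 5 genes outside the group with the most similar pattern were Aoc3 (0.23), Trf (0.25), Abcd2 (0.26), Cfd (0.27) and Amy1 (0.27). The 28 points share the depth and tissue make-up of each library. For Ucp1 no such list could be made, since it did not pass the filter.

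In the wider fat pathways, most of the other adipogenic transcription factors did not pass after UV. Of 14 such genes, 1 rose and 3 fell in WT, 1 rose and 4 fell in KO, 2 rose and 2 fell in FL, and 1 rose and 1 fell in cKO. The share of all genes called, in either direction, was 18.7% in WT, 22.4% in KO, 7.62% in FL and 9.72% in cKO. Ebf2, a factor of brown and beige fat precursors, fell in WT (log2 fold change -2.32, adjusted p = 0.00123) and KO (-2.55, adjusted p = 0.000553). The estimate for Ebf2 in FL was 0.07 (adjusted p = 0.946). Rxra, the partner of Pparg on DNA, fell in all 4 genotypes, with log2 fold changes of -1.07 in WT (adjusted p = 0.00853), -1.24 in KO (0.00317), -0.77 in FL (0.00869) and -0.70 in cKO (0.0138). Nr3c1, the glucocorticoid receptor, fell by 1.00 in WT (adjusted p = 0.0136) and had a log2 fold change of -1.07 in KO (adjusted p = 0.00754). In FL its estimate was -0.45 and did not pass (adjusted p = 0.148). Cebpd, an early factor of fat cell formation that also responds to inflammation, rose in all 4 genotypes, with log2 fold changes of 1.68 in WT (adjusted p = 0.0214), 1.55 in KO (0.026), 2.32 in FL (0.0024) and 2.31 in cKO (0.00206). Klf9, a factor induced by glucocorticoids, rose by 1.16 in FL (adjusted p = 0.0261). These factors are expressed in many skin cells besides fat cells.

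Of 15 genes of lipolysis and its control, 1 rose and 4 fell in WT, 1 rose and 3 fell in KO, 2 rose in FL, and 2 rose and 1 fell in cKO, beside 18.7%, 22.4%, 7.62% and 9.72% of all genes called in these comparisons. G0s2, an inhibitor of the triglyceride lipase ATGL, fell in 3 genotypes, with log2 fold changes of -2.68 in WT (adjusted p = 0.00142), -2.03 in KO (0.00439) and -1.18 in cKO (0.0209). The estimate for G0s2 in FL was -0.75 and did not pass (adjusted p = 0.135). Adrb1, the beta-1 adrenergic receptor, fell in WT (-2.12, adjusted p = 0.00859) and KO (-2.13, adjusted p = 0.00487), from a low level of 0.859 ± 0.22 CPM (n = 3) in WT_NoUV. The estimate for Adrb1 in FL was 0.11 (adjusted p = 0.917). Irs1, an adaptor of the insulin receptor, fell in WT (-1.14, adjusted p = 0.00484) and KO (-1.38, adjusted p = 0.00133), with an estimate of -0.12 in FL (adjusted p = 0.664). Irs2, another insulin receptor adaptor, rose by 0.70 in FL (adjusted p = 0.0252) and 0.80 in cKO (adjusted p = 0.0113).

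Of 28 genes of the lipid droplet and fat storage, 3 rose in WT, 1 rose and 2 fell in KO, 1 rose in FL and 1 rose in cKO. In each genotype this is a smaller share than that of all genes (18.7%, 22.4%, 7.62% and 9.72%). In WT, the insulin-regulated glucose transporter Slc2a4 (0.76, adjusted p = 0.0112) and the droplet proteins Plin4 (1.18, adjusted p = 0.0192) and Plin5 (1.51, adjusted p = 0.0205) rose on the log2 scale. In KO, Plin5 rose by 1.24 (adjusted p = 0.0401), whereas Trarg1, which acts in the traffic of Slc2a4, fell (-1.20, adjusted p = 0.014), as did Agpat2, an enzyme of triglyceride synthesis (-0.92, adjusted p = 0.0465). Mrap rose by 1.17 in FL (adjusted p = 0.0437) and Plin4 by 0.98 in cKO (adjusted p = 0.0354). Slc2a4, Plin4 and Plin5 are also expressed in skeletal muscle, of whose 12 listed genes 3 rose and 1 fell in WT, 1 rose and 1 fell in KO, 0 passed in FL, and 2 rose in cKO.

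Of 20 thermogenic and browning genes, 18 were tested, and 1 rose and 3 fell in WT, 3 fell in KO, and 0 passed in FL and cKO. With 18.7% of all genes called in WT and 22.4% in KO, these counts are no result about the list. Prdm16, a regulator of brown and beige fat, fell in WT (log2 fold change -1.46, adjusted p = 0.00175) and KO (-1.81, adjusted p = 0.000439). Tbx1, a marker of beige fat, fell in WT (-1.21, adjusted p = 0.0032) and KO (-0.95, adjusted p = 0.00916). Tmem26, another such marker, fell in WT (-2.14, adjusted p = 0.00687) and KO (-1.69, adjusted p = 0.0172). The FL estimates were also below 0 without passing, at -0.75 for Prdm16 (adjusted p = 0.0636), -0.30 for Tbx1 (0.753) and -0.77 for Tmem26 (0.262). Ucp1 was near 0 in the same libraries, and Cidea and Elovl3 of this list are also sebaceous gland genes. Of the 5 adipokine receptor genes, 0 passed in any UV comparison.

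Of 14 activin receptor partners and ligands, 13 were tested in the whole-body experiment and 12 in the keratinocyte experiment. Among them 5 fell in WT, 4 in KO, 2 in FL and 2 in cKO, and 0 rose. Of all genes, 9.84% were called lower in WT, 11.1% in KO, 4.09% in FL and 5.15% in cKO. Acvr1b, the ubiquitous type I activin receptor related to Acvr1c, fell in WT (log2 fold change -1.08, adjusted p = 0.000314), KO (-0.86, adjusted p = 0.000642) and FL (-0.60, adjusted p = 0.0152). The type II receptor Acvr2a fell in WT (-1.15, adjusted p = 0.0102), KO (-1.26, adjusted p = 0.005), FL (-0.53, adjusted p = 0.0109) and cKO (-0.65, adjusted p = 0.00289). The signal carrier Smad2 fell in WT (-0.64, adjusted p = 0.00768), KO (-0.72, adjusted p = 0.00309) and cKO (-0.58, adjusted p = 0.0032). Inhbb, which encodes an activin subunit, fell in WT (-0.84, adjusted p = 0.0139) and KO (-1.28, adjusted p = 0.00115). In FL, Smad2 (-0.34, adjusted p = 0.0598) and Inhbb (-0.25, adjusted p = 0.478) did not pass. The median log2 fold change of the list was -0.68 in WT and -0.61 in KO, and -0.04 in FL and -0.01 in cKO, beside values from -0.01 to 0.02 over all genes.

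The summed CPM of Adipoq, Lep, Retn, Plin1, Cidec and Fabp4 gives the combined level in each library. It was 694 to 724 in WT_NoUV and 810 to 1160 in WT_UV, and 671 to 1040 in KO_NoUV and 986 to 1280 in KO_UV. In the keratinocyte experiment it was 235 to 383 in FL_NoUV, 445 to 687 in FL_UV, 252 to 597 in cKO_NoUV and 367 to 1150 in cKO_UV. The sum was thus higher in every UV library than in every NoUV library in WT and FL, and the ranges overlapped in KO and cKO. Among single genes, 29.4% in WT and 14.5% in FL also had no overlap, in either direction. Fabp4 made the largest part of the sum, with group means of 414 CPM in WT_NoUV, 600 in WT_UV, 167 in FL_NoUV and 294 in FL_UV. Fabp4 alone also did not overlap in WT and FL, whereas Adipoq and Plin1 overlapped in both, Retn and Cidec in WT, and Lep in FL. Libraries with the same replicate number are not stated to share a mouse. Between them, the UV library had the higher sum in 3 of 3 KO pairs and 4 of 4 cKO pairs, which is a description and not a paired test. The KO sums were 671, 923 and 1040 without UV and 986, 1010 and 1280 after UV, and the cKO sums 252, 338, 393 and 597 without UV and 367, 746, 680 and 1150 after UV, each in the order of the replicate number. Skeletal muscle genes, from tissue beneath the fat layer, summed to 8930 to 15700 in WT_NoUV and 14800 to 20200 in WT_UV, and to 4110 to 6700 in FL_NoUV and 5340 to 16200 in FL_UV. In cKO they were 3650 to 13800 without UV and 9520 to 32400 after UV, and in KO 18700 to 25100 and 15600 to 26000. All 12 muscle genes were detected in all 28 libraries. The median muscle sum was higher after UV in WT (13900 to 18500), FL (4980 to 9300) and cKO (11200 to 19800), and not in KO (20000 to 19100), and its part in the UV values of the fat genes was not tested.

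Fibroblast genes (7 genes) summed to 5730 to 9340 in WT_NoUV, 6960 to 9540 in WT_UV, 7950 to 9500 in KO_NoUV and 11800 to 15200 in KO_UV. They summed to 3950 to 6600 in FL_NoUV, 7520 to 10600 in FL_UV, 4960 to 6040 in cKO_NoUV and 4230 to 9030 in cKO_UV. The fibroblast sums were thus higher in every UV library than in every NoUV library in KO and FL, so such a separation was not particular to the fat genes. Macrophage genes (8 genes) summed to 613 to 1060 in WT_NoUV, 780 to 1310 in WT_UV, 781 to 1190 in KO_NoUV and 1050 to 2000 in KO_UV. In the keratinocyte experiment they summed to 294 to 1100 in FL_NoUV, 871 to 1370 in FL_UV, 374 to 817 in cKO_NoUV and 338 to 1110 in cKO_UV. Genes of the growing hair follicle (12 genes) summed to 49.7 to 5810 in FL_NoUV, 44.2 to 2370 in FL_UV, 49.4 to 9070 in cKO_NoUV and 31.1 to 349 in cKO_UV. The highest of them, cKO_NoUV replicate 1, was the library with the lowest level of its group for 7 of the 9 tested members, Lep and Adrb3 being the exceptions. The part of fibroblasts, macrophages and hair follicles in the values of the members was not tested. Of 9 mammary epithelium genes, up to 6 were at 0 in a library, and the milk genes Csn2 and Wap had at most 3 counts in any library. Of 9 adipocyte progenitor genes, 1 rose in WT, FL and cKO (Icam1, which also responds to inflammation, chosen after its values were seen) and 4 rose in KO. In FL and cKO 8 of the 9 were tested. Of all genes, 8.91% were called higher in WT, 11.3% in KO, 3.52% in FL and 4.57% in cKO.

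**Figure D5:**
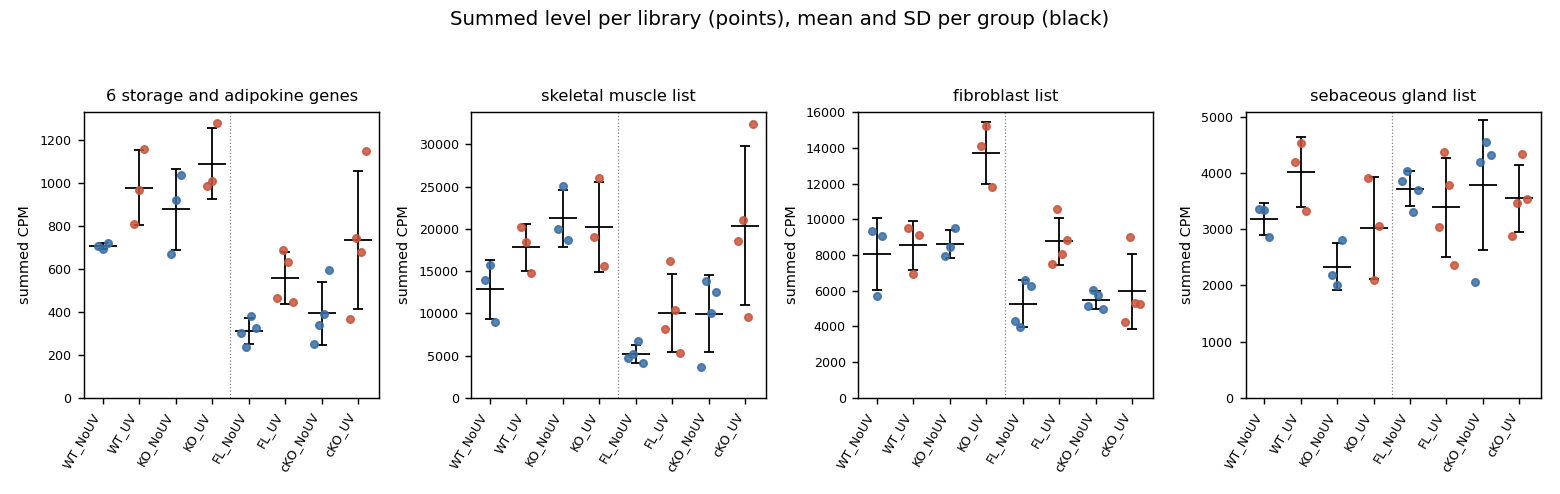
Summed CPM per library (points, blue NoUV and red UV) for 6 fat cell genes and for the skeletal muscle, fibroblast and sebaceous gland lists, with group mean and SD in black. In FL and cKO the fat cell genes and the muscle list both have their highest libraries after UV, up to 1150 and 32400 in cKO_UV.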

How the data were processed

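RNA of whole skin was sequenced after ribosomal RNA depletion. The submitters' processing notes name cutadapt 4.6, HISAT2 2.1.0, featureCounts of Subread (version not given in the sources used here) and the build GRCm38. The deposited values are raw counts per gene, with no normalization by the authors. Positions in the keratinocyte table mostly differ from GRCm38, so tables were joined by Ensembl identifier (51976 genes), and printed positions come from the whole-body table.

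Each experiment was fitted separately with edgeR 4.0.16 in R 4.3.3 (TMM scaling, filter on low counts, robust quasi-likelihood test, 1 coefficient per group, two-sided). Benjamini-Hochberg adjustment ran over every tested gene, and 0.05 was the threshold. Differences across experiments came from 1 joint fit. Log2 CPM used a prior count of 3. The SE was derived from the quasi-likelihood F test, as the size of the log2 fold change over the square root of F. The 95% intervals were built from this SE with the t distribution. DESeq2 1.42.0, other scalings, no filter, only the groups compared, each library left out and a replicate block were alternatives, and leaving out the shallow libraries was added after depths were seen. Duplicate libraries were not found. The design text calls replicates biological.

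No reported fit paired samples, and the replicate block was an alternative only. Deviations from group means were correlated between libraries with the same replicate number. They correlated above 0.1 in every pair of KO_NoUV with KO_UV (0.15, 0.13 and 0.18) and of cKO_NoUV with cKO_UV (0.47, 0.23, 0.24 and 0.49). Of 42 same-numbered pairs of libraries from different groups of an experiment, 24 were above 0.1. For cKO_NoUV with FL_UV, which differ in genotype, the values were 0.50, 0.37, 0.45 and -0.17. No shared mouse is stated, and each keratinocyte library has its own number in its column name, so a pairing is not shown. Scripts were tested on simulated data. Members and lists were chosen with earlier results of these data known. Named genes were all 10 members, Vsir, up to 3 called genes per pathway list and comparison with the smallest p, and the 5 most like Adipoq; Hoxc10, Cidea, Elovl3, Icam1, Csn2 and Wap were named outside this rule, after their values were seen. A gene counted in the pathway lists that this rule would name is not reported here.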

Additional observations from a re-analysis of the deposited data

Results flagged for a closer look

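Of 36 sets of 4 libraries (9 members in the 4 keratinocyte groups), 2 held a library whose gap to the nearest other exceeded the 95% critical value of Dixon's test as a share of the group's range, and chance gives about 1 in 20. Pparg in cKO_NoUV replicate 1 was 27.2 CPM, with the other 3 libraries at 45 to 48.4 CPM (gap 0.84 of the range). Adrb3 in cKO_UV replicate 1 was 5.39 CPM, with the others at 11.1 to 12.1 CPM (gap 0.851 of the range).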

How the results depend on the processing

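Named as UV in WT, KO, FL and cKO, members called were 2, 3, 0 and 0 and genes called 3817, 4552, 1502 and 1917. The replicate block called 4 members in WT (Retn, adjusted p = 0.0472, and Fabp4, 0.0339, beside Pparg and Acvr1c), 2 in FL (Cidec, 0.023, and Fabp4, 0.0205) and 2 in cKO, and changed no call in KO; correlations of same-numbered samples were not above 0.1 in every pair in WT (-0.38 to 0.33) or FL (-0.12 to 0.53). DESeq2 called 2 members in FL and 3 in cKO, and only the groups compared 0 in WT and 1 in FL. Leaving out 1 library gave 1 to 3 members in WT, 1 to 3 in KO, 0 to 1 in FL and 0 to 5 in cKO, the most without cKO_UV replicate 1. UV estimates within a genotype that changed sign when 1 library was left out were Plin1 in WT (-0.20 to 0.02), Adipoq in KO (-0.06 to 0.24) and Acvr1c in cKO (-0.43 to 0.46); none had passed. Over all alternatives, 10 of 36 member differences between genotypes and 14 of 27 differences between UV effects also changed sign. Of the UV estimates within a genotype, 687 of 738 kept direction and side of the threshold, and leaving out both shallow libraries changed no call of a member. Genes called by DESeq2 were 2443 in FL, 2984 in cKO, 594 and 450 for KO against WT without and after UV, 7 and 2 for cKO against FL, and 687 for WT minus FL (262 in the reported fit). Without the filter they were 992 in FL, 1276 in cKO, 185 and 162 for KO against WT, 1 for cKO against FL without UV and 137 for WT minus FL. The replicate block gave 22 and 31 for KO against WT and 1 for cKO against FL without UV. Only the groups compared gave 1288 in WT, 7493 in KO, 953 in FL, 4 for KO against WT without UV and 20 for WT minus FL. Leaving out 1 library gave 2832 to 5683 in KO, 884 to 1696 in FL, 1178 to 2424 in cKO, 2 to 27 and 2 to 155 for KO against WT without and after UV, and 65 to 423 for WT minus FL. The cause of these shifts was not tested. Depth limits Ucp1.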
